A study of Mus musculus with 2 samples.

Results

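The cells described here were tumour macrophages of small B16F10 melanomas that carried all 3 C1q transcripts together with a set of genes that included Vcam1 and Fcrls. They were picked by their own counts of unique molecular identifiers (UMIs, each a molecule counted once). A cell was kept with 200 to 5000 genes detected, with at most 7.5% of its UMIs from mitochondrial genes. Its pigment genes (Pmel, Dct, Mlana and Tyrp1) had to make up less than 0.5% of its UMIs. It then needed a UMI of each of C1qa, C1qb and C1qc, at least 3 of the 7 genes Vcam1, Fcrls, Npl, Stab1, Gatm, Gdf15 and Ccl12, and at most 2 of the 8 resident-type genes Cd209f, Lyve1, Fcna, Ccl8, Ednrb, Cd209g, Cd163 and Cbr2. The rule found 256 Vcam1 Fcrls macrophages among 7418 kept cells. The other cells with all 3 C1q transcripts were 631 with fewer of the 7 genes and at most 2 resident-type genes (other C1q macrophages) and 462 with at least 3 resident-type genes (resident-type macrophages).

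The study asked how loss of the transcription factor ATF4 in the host alters tumours grown from implanted melanoma cells. Single-cell 3′ RNA libraries were made from small subcutaneous tumours, 1 library for each host genotype, each a pool of 2 tumours from hosts aged 11 weeks that the labels describe as mixed for sex. In Atf4 Δ/Δ hosts (labelled Atf4D/D), exons 2 and 3 of Atf4 lay between loxP sites and were removed by a tamoxifen-activated Cre made from the Rosa26 locus, which is active in most cell types. Atf4 WT/WT hosts (labelled Atf4wt/wt) had the Rosa26 CreERT2 allele and received tamoxifen by gavage too, and the injected B16F10 cells kept their own Atf4 in both. With 1 library per genotype no difference between genotypes could be tested. Intervals in brackets are 95% intervals that cover counting error only.

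C1q is the recognition part of the first complement component, and its 3 chains are made mostly by macrophages, where C1q binds dying cells and immune complexes. VCAM1 is an adhesion protein bound by the integrin α4β1. Fcrls, a scavenger receptor-like member of the Fc receptor family, is best known from microglia. Stab1 encodes a scavenger receptor, Gatm the first enzyme of creatine synthesis, Npl an enzyme that splits sialic acid, Gdf15 a stress-induced cytokine and Ccl12 a chemokine for monocytes.

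The WT/WT library held 38417113 UMIs over 6304 barcodes and the Δ/Δ library 38290024 over 5474. The gate took 163 Vcam1 Fcrls macrophages from the first and 93 from the second, with median depths of 3192 and 2532 UMIs per cell. Other C1q macrophages were shallower, at 2070 and 1729, and resident-type macrophages had 3258 and 3142. The libraries shared 10 barcodes, none of them of a Vcam1 Fcrls macrophage. No UMI of 7 T and NK cell markers was found in these macrophages in either library. Fibroblast markers summed to 314 UMIs per 1000000 (CPM) in WT/WT and 73.7 in Δ/Δ, with Pdgfra at 0 in both, and endothelial markers to 61.0 (35 UMIs) and 12.3 (3 UMIs), with Pecam1, Flt1, Cldn5 and Egfl7 at 0 in Δ/Δ. Haemoglobin transcripts summed to 1886 CPM and 4.09, and in pigment-rich cells, which are mostly melanoma, to 462 and 0.0518. The part that these foreign transcripts play in the genotype differences was not tested.

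The 2 libraries also differed in sex-linked transcripts, so that host genotype and sex cannot be told apart. Among WT/WT Vcam1 Fcrls macrophages, 134 of 163 cells had an Xist UMI and none had a UMI of Ddx3y, Eif2s3y, Kdm5d or Uty, which lie on the Y chromosome. Among those from Δ/Δ hosts, 4 of 93 had Xist alone, 20 had Y-linked transcripts alone, 2 had both and 67 had neither. Xist was at 672 CPM in WT/WT and 53.2 in Δ/Δ.

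The gate genes describe the members and support nothing, since they chose them. Vcam1 (chr3:116109949-116129688 on the minus strand, GRCm38) stood at 131 CPM in WT/WT and 344 in Δ/Δ Vcam1 Fcrls macrophages, at 12.2 and 34.2 in other C1q macrophages, and at 77.2 and 41.7 in resident-type macrophages. Fcrls (chr3:87250758-87263738, minus strand) was at 361 and 500 CPM, against 152 and 66.3 in other C1q macrophages and 216 and 66.2 in resident-type macrophages. The level of both genes was thus highest in the Vcam1 Fcrls macrophages of each library.

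Npl and Stab1 did not follow that order. Npl was at 209 CPM in WT/WT and 217 in Δ/Δ Vcam1 Fcrls macrophages, below its 373 and 262 in resident-type macrophages. Stab1 was at 530 and 716 CPM, between the 203 and 139 of other C1q macrophages and the 608 of resident-type macrophages in WT/WT, but above the 437 of the latter in Δ/Δ. For Gatm the levels were 122 and 197 CPM, for Gdf15 559 and 540, and for Ccl12 749 and 2309.

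The cells were also mixed in which markers they showed. A Vcam1 UMI was found in 25.8% of WT/WT and 49.5% of Δ/Δ Vcam1 Fcrls macrophages, with a median depth of 3192 and 2532 UMIs, and in 0.715% and 0.777% of pigment-rich cells, whose median depth was 11367 and 10752.5. Thinned to 2000 UMIs per cell, the shares were 20.1% and 40.6% against 0.179% and 0.119%. Fcrls was seen in 65.6% and 64.5%, Stab1 in 81.0% and 74.2% and Ccl12 in 66.9% and 87.1%. Vcam1 and Fcrls were found together in 15.3% and 35.5% of the cells, Stab1 and Ccl12 in 52.1% and 64.5%. A Vcam1 UMI was therefore absent from most members in WT/WT, where the gate was passed more often through Stab1, Ccl12, Fcrls and Gdf15.

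**Figure D1:**
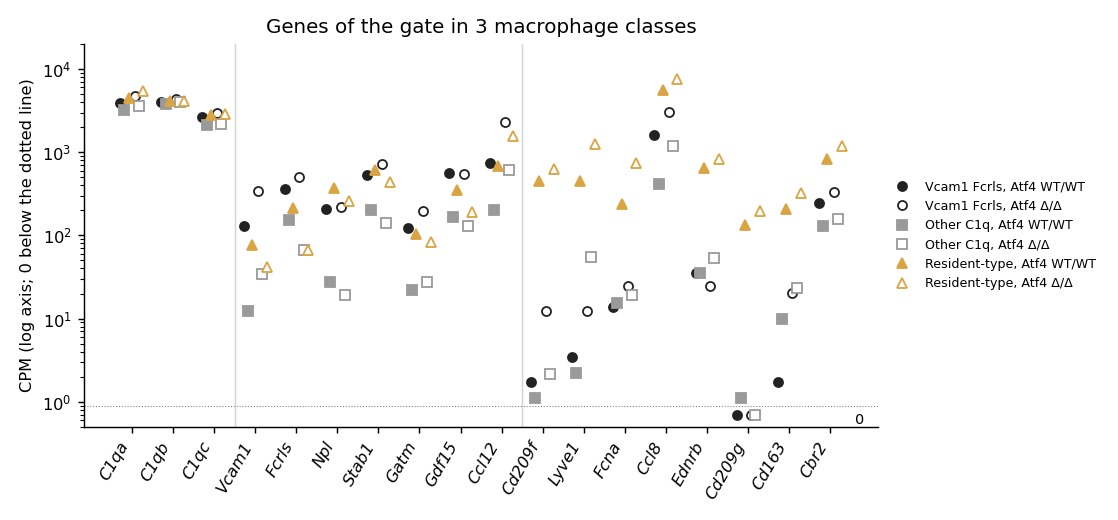
Level in CPM (log axis, with 0 below the dotted line) of the C1q, marker and resident-type genes of the gate, for 3 classes of C1q macrophages (shapes) in the 2 libraries (filled, Atf4 WT/WT; open, Atf4 Δ/Δ). Vcam1 and Fcrls are highest in the Vcam1 Fcrls macrophages, while the C1q genes lie close together in all 3 classes.

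The name C1q-high held only against part of the macrophages. Summed over C1qa, C1qb and C1qc, the level was 10553 CPM in WT/WT and 12033 in Δ/Δ, above the 9074 and 9753 of other C1q macrophages and below the 11416 and 12473 of resident-type macrophages. Pigment-rich cells had 48.7 and 50.2 CPM. The 7 markers together came to 2660 and 4823 CPM, against 2408 and 2636 in resident-type macrophages. Resident-type genes were not absent. In Vcam1 Fcrls macrophages they summed to 1930 CPM in WT/WT and 3501 in Δ/Δ. This was above the 604 and 1488 of other C1q macrophages and below the 8578 and 12719 of resident-type macrophages. In Vcam1 Fcrls macrophages Ccl8, a chemokine, was at 1632 and 3075 CPM and was found in 62.0% and 76.3% of the cells. Cbr2, a carbonyl reductase, was at 242 and 332 CPM there. By contrast Lyve1, a hyaluronan receptor, was at 3.48 and 12.3 CPM and Cd209g had no UMI.

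The number of markers varied between members. In WT/WT, 67 of 163 cells had exactly 3 of the 7 markers, 61 had 4, 23 had 5, 11 had 6 and 1 had all 7. In Δ/Δ the numbers were 38, 26, 13, 13 and 3. The cells just inside, with 3 markers, had the 7 genes at 2057 and 3848 CPM, and those just outside, with 2 markers (112 and 66 cells), at 1436 and 1779. The MHC class II list, which the gate did not use, stood at 2142 and 1018 CPM just inside it and at 3967 and 3040 just outside.

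Vcam1 Fcrls macrophages made up a smaller share of the C1q macrophages in the library from Δ/Δ hosts. They were 163 of 736 cells in WT/WT, or 22.1% (19.2 to 25.3), and 93 of 613 in Δ/Δ, or 15.2% (12.4 to 18.3). The ratio of the shares, Δ/Δ over WT/WT, was -0.55 on the log2 scale (-0.88 to -0.21). Of all kept cells they were 4.22% and 2.61%, a log2 ratio of -0.69 (-1.05 to -0.33). Resident-type macrophages went the other way, from 24.6% to 45.8% of C1q macrophages, and other C1q macrophages went from 53.3% to 39.0%. The gate genes themselves differed between the libraries outside the Vcam1 Fcrls macrophages. In other C1q macrophages Ccl8 was found in 19.6% of WT/WT and 31.4% of Δ/Δ cells, Ccl12 in 17.9% and 40.2%, and Fcrls in 21.9% and 8.79%. In resident-type macrophages Fcrls was found in 46.4% and 13.5%. The part of these differences in the shares was not tested.

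Because the gate counts genes detected, deeper cells pass it more easily. With every cell thinned to 2000 UMIs before the gate was applied, the share was 26.9% in WT/WT (133 of 495 cells) and 18.1% in Δ/Δ (71 of 393), and the log2 ratio was -0.57 (-0.94 to -0.20).

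**Figure D2:**
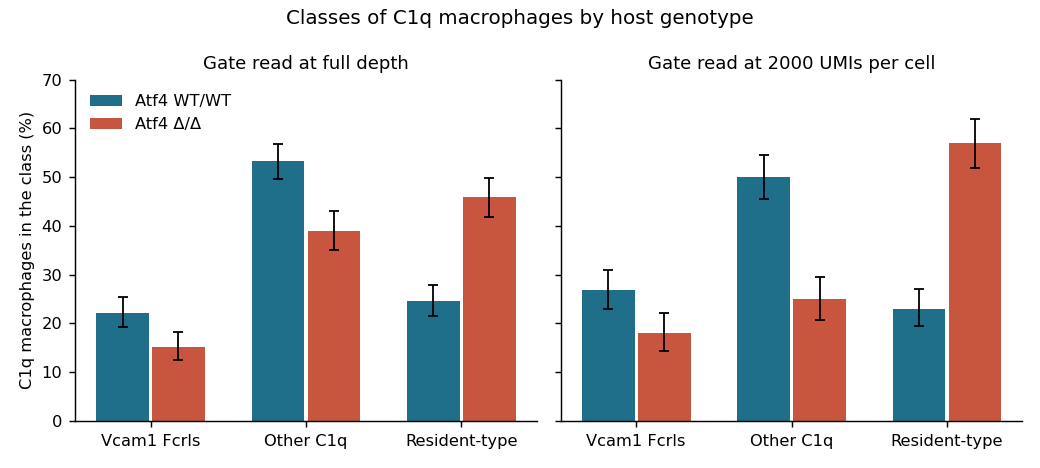
Share of C1q macrophages (%) in the 3 classes for Atf4 WT/WT and Atf4 Δ/Δ hosts, with the gate applied to all UMIs of a cell (left) or to 2000 UMIs per cell (right). Bars are shares in 1 library per genotype, with 95% exact binomial intervals. Vcam1 Fcrls macrophages take 22.1% and 15.2% on the left and 26.9% and 18.1% on the right.

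Within the Δ/Δ library the share was lower in Xist-positive than in Y-positive cells, on few cells and with overlapping intervals. In Xist-positive cells free of Y-linked UMIs the share was 4 of 68, or 5.88% (1.63 to 14.4), and in cells that had Y-linked UMIs but not Xist it was 20 of 104, or 19.2% (12.2 to 28.1). The remaining C1q macrophages of that library, at lower depth, gave 15.6%. In WT/WT the share was 24.1% in cells with Xist and 16.2% in those without, at median depths of 2741 and 1970 UMIs. None of these WT/WT cells had a Y-linked UMI, and the part of depth in this gap was not tested. Between Xist-positive cells of the 2 libraries the log2 ratio of the shares was -2.03 (-3.42 to -0.64), wider than over all cells, while the Y-positive cells of Δ/Δ hosts had no counterpart in WT/WT.

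Compared with other C1q macrophages, Vcam1 Fcrls macrophages had far less RNA of MHC class II and of monocyte genes, and more of cell cycle genes. Of the 2021 genes outside the gate with at least 50 UMIs over both classes in each library, 9 (0.445%) were more than 2-fold higher in both libraries and 24 (1.19%) more than 2-fold lower. The median log2 ratio over these genes was 0.00 in WT/WT and 0.05 in Δ/Δ. Cells of the 2 classes were chosen by their own counts, so these values describe the gate's cells and carry no test. The share of all genes above or below 0 in both libraries was not taken. Counts of list members by sign, here and against resident-type macrophages, are therefore a description only.

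MHC class II molecules present peptides to CD4+ T cells. All 6 members of that list that could be measured, of 9, were more than 2-fold lower in both libraries, with a median log2 ratio of -2.15 in WT/WT and -3.49 in Δ/Δ. H2-Eb1, a β chain, was at 101 CPM in WT/WT against 726 in other C1q macrophages, and at 40.9 against 787 in Δ/Δ. For H2-Ab1 the levels were 157 against 839 and 81.9 against 1041. Cd74, the invariant chain that guards the peptide groove, was at 742 against 2793 and 315 against 3141, a log2 ratio of -1.91 (-2.06 to -1.76) and -3.32 (-3.67 to -2.99). The peptide exchange factors H2-DMa and H2-DMb1 differed least, with log2 ratios of -1.08 and -1.31 in WT/WT and -1.50 and -1.54 in Δ/Δ. The summed level of the list was 1301 CPM in WT/WT and 610 in Δ/Δ, against 5561 and 6289 in other C1q macrophages and 743 and 477 in resident-type macrophages.

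Class II genes share a promoter block whose Y box holds the letters ATTGG, bound by NF-Y, and the box is shown because these genes were low together. Of the 9 listed genes 6 were found in the part of the RefSeq promoter table (GRCm38.p6) that was searched for them. Of these, 5 held ATTGG on the sense strand within 100 bases before the start. H2-DMb2 and H2-Oa, among these 5, were too low to be measured and so are not among the genes found lower. Cd74 lay outside the searched part, so its promoter was not looked at. Of all 32851 promoters in the table, with the part not searched for the listed genes included, 10.4% held it on that strand and 18.9% on either strand. The match is a description and not a sign of binding. The stretches below are read 5′ to 3′ on the gene's strand, with the motif in capitals.
H2-Aa (chr17:34287855-34287883, minus strand, motif 48 bases before the start): gagaattttctgATTGGttctggcgagtt
H2-Eb1 (chr17:34305796-34305824, plus strand, 59 bases before): cctttgatgctgATTGGctcccagcactg
H2-DMb1 (chr17:34153118-34153146, plus strand, 61 bases before): attcactcagtgATTGGtctgacctgcct
All 3 genes were among the 6 that were lower, with log2 ratios in Δ/Δ of -3.80, -4.26 and -1.54.

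Of 12 monocyte genes 7 could be measured, and 6 were more than 2-fold lower in both libraries, with medians of -1.90 and -2.69. Ccr2, the receptor that brings monocytes into tissue, was at 29.6 CPM against 225 in WT/WT and 20.5 against 150 in Δ/Δ. Plac8 was at 29.6 against 124 and 32.8 against 212. Fn1, which encodes fibronectin, was at 212 against 667 and 98.3 against 686, and Thbs1, for thrombospondin 1, at 131 against 411 and 65.5 against 605. The exception was F13a1, the A chain of clotting factor XIII, with 488 against 409 CPM and 631 against 609.

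Cell cycle genes formed the third group. Of 19 listed genes 7 could be measured, and 6 were more than 2-fold higher in both libraries, with medians of 1.15 in WT/WT and 2.23 in Δ/Δ. Stmn1, a regulator of microtubules, was at 482 CPM against 167 in WT/WT and 573 against 87.7 in Δ/Δ. Mki67, expressed in cycling cells, was at 164 against 64.2 and 180 against 38.5, and Top2a, the topoisomerase that untangles replicated DNA, at 143 against 69.8 and 213 against 38.5. Pcna, the sliding clamp of DNA polymerase, was at 131 against 89.7 and 81.9 against 83.4, and so was not higher in Δ/Δ.

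At 2000 UMIs per cell, 75 of 149 Vcam1 Fcrls macrophages in WT/WT (50.3%, 42.0 to 58.6) and 35 of 69 in Δ/Δ (50.7%, 38.4 to 63.0) had UMIs of at least 3 of the 19 cell cycle genes. The shares were 19.8% and 18.5% in other C1q macrophages and 41.5% and 22.7% in resident-type macrophages. For these values the classes came from the gate read at full depth. With the gate also read at 2000 UMIs, the shares were 49.6% and 50.7% in Vcam1 Fcrls macrophages. They were then 25.4% and 25.5% in other C1q macrophages, a narrower gap, and 41.2% and 20.1% in resident-type macrophages. Melanoma cells divide too, and cells rich in pigment RNA had the 19 genes at 3733 CPM in WT/WT. The free RNA in Vcam1 Fcrls macrophages, estimated from pigment genes, was 7.10% of UMIs in WT/WT and 6.38% in Δ/Δ, against 7.79% and 8.75% in other C1q macrophages. In resident-type macrophages it was 5.86% and 6.48%. The gate limits the pigment genes that this estimate uses, and the part of melanoma RNA in the cell cycle counts was not tested.

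The 3 gene groups were then followed over the number of markers. At 2000 UMIs per cell, among C1q macrophages with at most 2 resident-type genes, the MHC class II sum was 6852 CPM in WT/WT cells with none of the 7 markers, 3011 with 1, 2481 with 2, 1552 with 3 and 757 with 4 or more. In Δ/Δ it was 6858, 2789, 661, 695 and 402. In WT/WT the level was lower at each step, on both sides of the gate's limit of 3 markers, and in Δ/Δ the cells with 2 markers were already as low as those with 3. The first Δ/Δ value rests on 18 cells, and the drop from 1 marker onwards is there without it. The cell cycle sum was 1031 CPM with no marker and 2717 with 4 or more in WT/WT, and 271 and 2488 in Δ/Δ, without a step between 1 and 2 markers. Monocyte genes went from 2267 to 955 CPM and from 2897 to 804. The C1q sum went from 7910 to 10932 CPM and from 9526 to 11833.

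**Figure D3:**
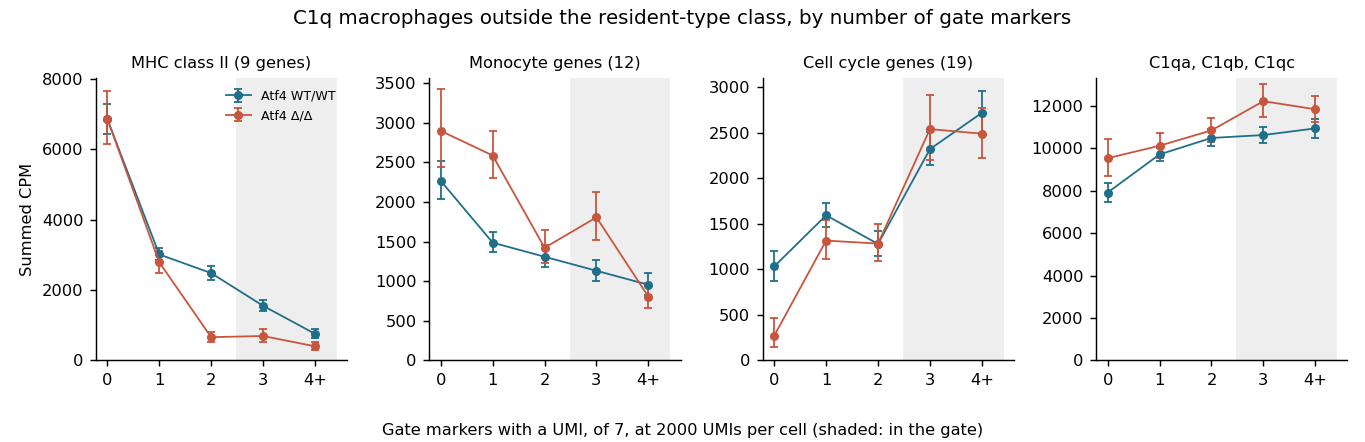
Summed CPM of 4 gene sets in C1q macrophages with at most 2 resident-type genes, by the number of the 7 markers with a UMI at 2000 UMIs per cell, in the library from Atf4 WT/WT and that from Atf4 Δ/Δ hosts (points, with 95% Poisson intervals). MHC class II RNA falls to 757 and 402 CPM at 4 or more markers while cell cycle RNA reaches 2717 and 2488; shading marks cells inside the gate.

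Among single genes chosen for their difference in both libraries, secreted and membrane proteins stood beside Stmn1. Gas6, a bridge between dying cells and the receptors TYRO3, AXL and MERTK, was at 247 CPM against 90.8 in WT/WT and 348 against 105 in Δ/Δ. Igf1, a growth factor, was at 359 against 183 and 254 against 107. Cd81, a tetraspanin, was at 320 against 198 and 500 against 199. Of 19 genes known from microglia 7 could be measured, and 5 were above 0 in both libraries, but none was past 2-fold in both. The medians were 0.43 and 0.52. Trem2, a lipid receptor, had log2 ratios of 0.43 and 0.65, and Bin1, an endocytic protein, 0.97 and 0.998.

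Other lists differed less or in 1 library only. Of 12 measured genes of alternative activation, of 15, 4 were more than 2-fold lower in both libraries. Arg1, an arginase, was at 67.9 CPM against 243 in WT/WT and 176 against 539 in Δ/Δ, and Ccl24, a chemokine for eosinophils, at 45.3 against 146 and 24.6 against 210. Mrc1, the mannose receptor, went the other way with 789 against 567 and 1048 against 569. Hypoxia and glycolysis genes were mostly a little lower, 14 of 16 in both libraries, with medians of -0.20 and -0.72. Il1b, which encodes interleukin 1β, was at 202 against 699 in WT/WT and 475 against 838 in Δ/Δ.

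**Figure D4:**
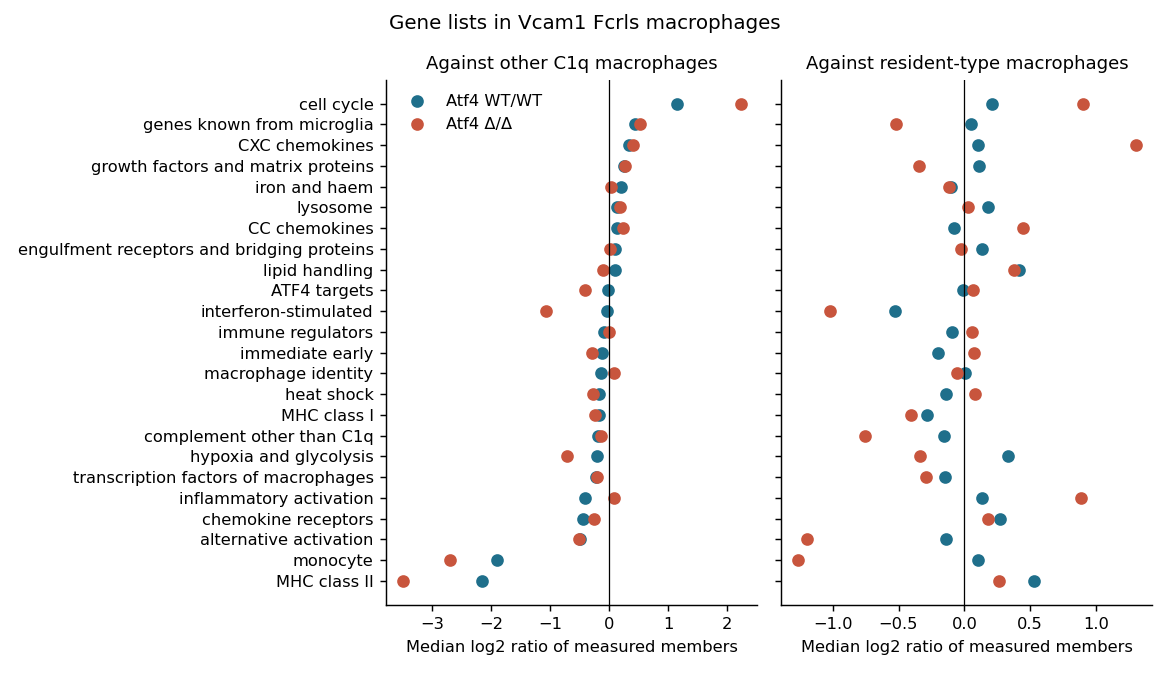
Median log2 ratio of the measured members of 24 gene lists in Vcam1 Fcrls macrophages against other C1q macrophages (left) and against resident-type macrophages (right), 1 point per library. MHC class II and monocyte genes lie lowest and cell cycle genes highest on the left, while on the right most medians lie within 1 of 0.

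Compared with resident-type macrophages, the difference lay in other genes. Of 2919 genes measured, 18 (0.617%) were more than 2-fold higher in Vcam1 Fcrls macrophages in both libraries and 42 (1.44%) more than 2-fold lower, with a median over all genes of 0.01 in WT/WT and 0.07 in Δ/Δ. Of 17 measured lipid handling genes, of 20, 4 were more than 2-fold higher in both libraries and 13 were above 0 in both. Fabp5, a fatty acid binding protein, was at 4299 CPM against 2120 in WT/WT and 3378 against 1462 in Δ/Δ. Its relative Fabp4 was at 740 against 290 and 242 against 97.2. Gpnmb, a membrane glycoprotein of lipid-laden macrophages, was at 629 against 195 and 483 against 202, and Acp5, an acid phosphatase, at 87.1 against 29.9 and 115 against 47.0. Gpnmb is also made by melanocytes. Lpl, lipoprotein lipase, was at 1268 against 714 and 500 against 145.

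Il1b and a pair of chemokines were higher as well. Il1b was at 202 CPM against 56.7 in WT/WT and 475 against 58.8 in Δ/Δ. Of 5 measured CXC chemokines 2 were past 2-fold in both libraries. These were Cxcl10, a chemokine for activated T cells, at 232 against 77.2 and 303 against 55.6, and Cxcl16, a membrane-bound scavenger and chemokine, at 239 against 91.4 and 360 against 96.2. In WT/WT, 60 of the 133 Cxcl10 UMIs lay in 3 Vcam1 Fcrls macrophages, 44 of them in 1 cell. Without these 3 cells its level was 132.9 CPM, less than 2-fold above the 77.2 of all resident-type macrophages. Cxcl1 and Cxcl2, which draw neutrophils, were level in WT/WT, with log2 ratios of 0.08 and -0.05, and higher in Δ/Δ at 1.30 and 1.28. Spp1, for osteopontin, was at 3173 against 1292 and 1527 against 727.

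On the lower side were Ltc4s, the enzyme that makes leukotriene C4, with 15.7 CPM against 178 in WT/WT and 8.19 against 428 in Δ/Δ (2 and 401 UMIs), and Marco, a scavenger receptor, with 45.3 against 227 and 20.5 against 276. Fcgrt, which rescues IgG from breakdown, was at 138 against 502 and 205 against 678. Clec10a, a galactose lectin, was at 83.6 against 266 and 86.0 against 362. C4b, a complement component, had log2 ratios of -2.19 and -1.57. Selenop, a selenium carrier, was at 1230 against 2158 and 1224 against 3953 CPM. Cell cycle genes separated these classes less, since 9 of 12 were above 0 in both libraries and none was past 2-fold in both. MHC class II was low in both classes, and all 3 measured members were above 0, with Cd74 at 742 against 370 and 315 against 246.

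The deletion was visible in the Vcam1 Fcrls macrophages. Atf4 (chr15:80255184-80257541, plus strand), whose last exon lies in the deleted part, gave 94 UMIs in WT/WT and 7 in Δ/Δ, which is 164 and 28.7 CPM (log2 ratio -2.51, -3.87 to -1.41). With the gate read at 2000 UMIs the ratio was -1.34 (-2.36 to -0.44). An Atf4 UMI was found in 63 of 163 and 5 of 93 cells. The log2 ratio was -1.77 in other C1q macrophages, -1.94 in resident-type macrophages and -0.17 in pigment-rich cells, which are mostly implanted and keep the gene. Known ATF4 targets were sparse: 9 of 43 had at least 50 UMIs, none was past 2-fold, and their median was 0.09. Atf3, a stress-induced transcription factor, had 218 and 56 UMIs and a log2 ratio of -0.73 (-1.18 to -0.30), and Eif4ebp1, a brake on translation, 91 and 55 UMIs and 0.51. Amino acid synthesis genes on that list, such as Asns, Psat1 and Phgdh, were too low to be measured.

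Between genotypes, Vcam1 Fcrls macrophages of the Δ/Δ library had more Tnf and Il1b RNA and less RNA of Cd36, Fabp4 and Lpl, of MHC class II genes and of Mmp12. These ratios hold the difference in sex-linked transcripts as well as that in genotype. Of 2336 genes with at least 50 UMIs over both libraries, 38 (1.63%) were more than 2-fold higher in Δ/Δ and 54 (2.31%) more than 2-fold lower, with a median over all of 0.01. The share of all genes above or below 0 was not taken, so counts of list members by sign are a description only.

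Tnf, which encodes tumour necrosis factor, had 113 UMIs in WT/WT and 154 in Δ/Δ, or 197 and 631 CPM, and the log2 ratio was 1.68 (1.32 to 2.04). These UMIs came from 68 cells in WT/WT and 41 in Δ/Δ, with at most 7 and 14 in a cell. Il1b had 116 UMIs in each, or 202 and 475 CPM, and a ratio of 1.23 (0.85 to 1.62). Tnf and Il1b were the inflammatory genes past 2-fold, of 9 measured from a list of 16, and 8 of the 9 were above 0 with a median of 0.74. The sum of the 16 genes was also split by marker number, at the fixed depth given above. With 4 or more markers it was 2281 CPM in WT/WT (2078 to 2499) and 4149 in Δ/Δ (3809 to 4512). With 3 markers it was 2105 (1936 to 2285) and 2412 (2082 to 2780), with overlapping intervals. Outside the gate this sum was lower in Δ/Δ with 0 and 2 markers and higher with 1. Tnf and Il1b alone were not split in this way. Nfkbia, the NF-κB inhibitor that NF-κB itself induces, was at 766 and 1273 CPM, and Il1rn, the interleukin 1 receptor antagonist, at 287 and 504. In other C1q macrophages the Tnf ratio was 0.17 (-0.18 to 0.52) and in resident-type macrophages -0.64 (-1.01 to -0.27), so its direction in the latter was opposite.

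Other genes with wide ratios on this side were Dusp2, a phosphatase that acts on MAP kinases, at 113 and 266 CPM (log2 ratio 1.23), Sdc4, a heparan sulphate proteoglycan, at 265 and 618 (1.22), and Clec4n, a receptor for fungal sugars, at 134 and 303 (1.18). Mmp14, a membrane-bound protease, had 17 and 38 UMIs, or 29.6 and 156 CPM, and a ratio of 2.39 (1.53 to 3.31). Among chemokines, Ccl3 and Ccl4 had ratios of 0.93 and 0.86, whereas Ccl6 was at 1970 and 893 CPM, a ratio of -1.14. Of the 10 named genes higher in Δ/Δ, 7 had the same sign in other C1q macrophages and 7 in resident-type macrophages, where 0 and 1 were past 2-fold against 0.925% and 2.29% of all genes. The share of all genes with the same sign was not taken, so the counts of signs are a description only.

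Of 17 measured lipid handling genes, Cd36, Fabp4 and Lpl were more than 2-fold lower in Δ/Δ, and the median of the list was -0.10. Cd36, a fatty acid transporter, had 289 UMIs in WT/WT and 38 in Δ/Δ, or 503 and 156 CPM, and its log2 ratio was -1.69 (-2.22 to -1.20). Its UMIs came from 111 of 163 WT/WT cells and 25 of 93 Δ/Δ cells. Fabp4 was at 740 and 242 CPM, a ratio of -1.62, and Lpl at 1268 and 500, a ratio of -1.34 (-1.63 to -1.07). One WT/WT cell held 76 of 425 Fabp4 UMIs, and without the 3 richest cells of each library its ratio was -1.36. The other members lay within 2-fold. Endothelial cells express Cd36 and Fabp4 too, and the part of the difference in endothelial markers given above was not tested. Apoe, which carries cholesterol out of the cell, was at 7704 and 12823 CPM, a ratio of 0.74 (0.67 to 0.80). Cd36, Fabp4 and Lpl were lower in the other classes too, with ratios of -0.85, -0.83 and -1.21 in other C1q macrophages and -0.84, -1.58 and -2.30 in resident-type macrophages.

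Further genes on the lower side were Atp6v0d2, a subunit of the proton pump of lysosomes and osteoclasts, with 140 and 13 UMIs and a ratio of -2.20 (-3.14 to -1.37), Cd9, a tetraspanin, at 352 and 119 CPM (-1.57), and Anxa1, for annexin A1, at 472 and 192 (-1.29). Mmp12, the macrophage elastase, had 101 UMIs in 36 WT/WT cells and 2 in Δ/Δ, or 176 and 8.19 CPM. With the Δ/Δ count set to the floor of 3 UMIs its ratio was -3.84, while it was 0.74 in other C1q macrophages and 1.65 in resident-type macrophages. Retnla, a secreted product of alternative activation, had 107 UMIs in WT/WT and 0 in Δ/Δ. Set to the same floor, Δ/Δ was lower by at least 3.92 on the log2 scale, but 88 of the 107 UMIs lay in 3 cells, and without the 3 richest cells the bound was 1.41. With a gate of at least 2 markers the Retnla ratio turned to 1.02 (0.67 to 1.36). Sparc, a matrix protein with 116 and 14 UMIs, owed 88 of them to 1 WT/WT cell, and its ratio went from -1.82 to 0.16 (-1.09 to 1.31) without the 3 richest cells. Of the 10 named lower genes 8 had the same sign in each of the other classes, where 3 and 4 were past 2-fold against 1.79% of all genes in both. Atf4, the deleted gene, is among these 10, and the share of all genes with the same sign was not taken.

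MHC class II RNA was lower again in Δ/Δ Vcam1 Fcrls macrophages. All 5 members measured were below 0 and 3 were more than 2-fold lower, with a median of -1.23. Cd74 was at 742 and 315 CPM, a ratio of -1.23 (-1.60 to -0.88), H2-Aa at 172 and 73.7 (-1.23) and H2-Eb1 at 101 and 40.9 (-1.30). In Δ/Δ, 44 of 77 Cd74 UMIs and 15 of 18 H2-Aa UMIs lay in 3 cells, and without the 3 richest cells of each library the ratios were -2.08, -3.28 and -1.97. In other C1q macrophages the ratios of the same 3 genes were 0.17, 0.18 and 0.12, and in resident-type macrophages -0.59, -0.93 and -0.48. Of 11 measured growth factor and matrix genes 1, Mmp14, was more than 2-fold higher and 2 were more than 2-fold lower, Fn1 at 212 and 98.3 CPM (-1.11) and Spp1 at 3173 and 1527 (-1.06), while Gas6 was at 247 and 348 (0.49). Klf2, a transcription factor that restrains inflammatory activation, had 68 and 8 UMIs and a ratio of -1.85 (-3.12 to -0.79).

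The list of alternative activation did not move as a whole. Of 11 measured members 3 were past 2-fold higher in Δ/Δ and 2, Mmp12 and Retnla, lower, with a median of 0.41. Arg1 had 39 and 43 UMIs (1.37), the latter from 5 cells, Chil3 27 and 41 UMIs (1.84), and Il10, an anti-inflammatory cytokine, 32 and 30 UMIs (1.14). Without the 3 richest cells of each library none of these stayed past 2-fold: Arg1 turned to -0.76 (-4.55 to 0.82), and Chil3 and Il10 went to 0.76 (-0.44 to 1.91) and 0.81 (-0.22 to 1.81). In iron metabolism, Trf, for transferrin, was at 85.3 and 176 CPM (1.04) and Tfrc, its receptor, at 132 and 57.3 (-1.21), while Hmox1, which breaks down haem, was at 1162 and 618 (-0.91). In WT/WT, 222 of 667 Hmox1 UMIs lay in 3 cells, and without the 3 richest cells of each library its ratio was -0.63 (-0.94 to -0.34). Haemoglobin transcripts were all but confined to the WT/WT library, and a link between them and Hmox1 was not tested. Cell cycle and lysosome genes had no member past 2-fold, of 15 and 26 measured, and medians of -0.03 and -0.10. Itgb1, the β chain of the integrin that binds VCAM1, was at 298 and 319 CPM.

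**Figure D5:**
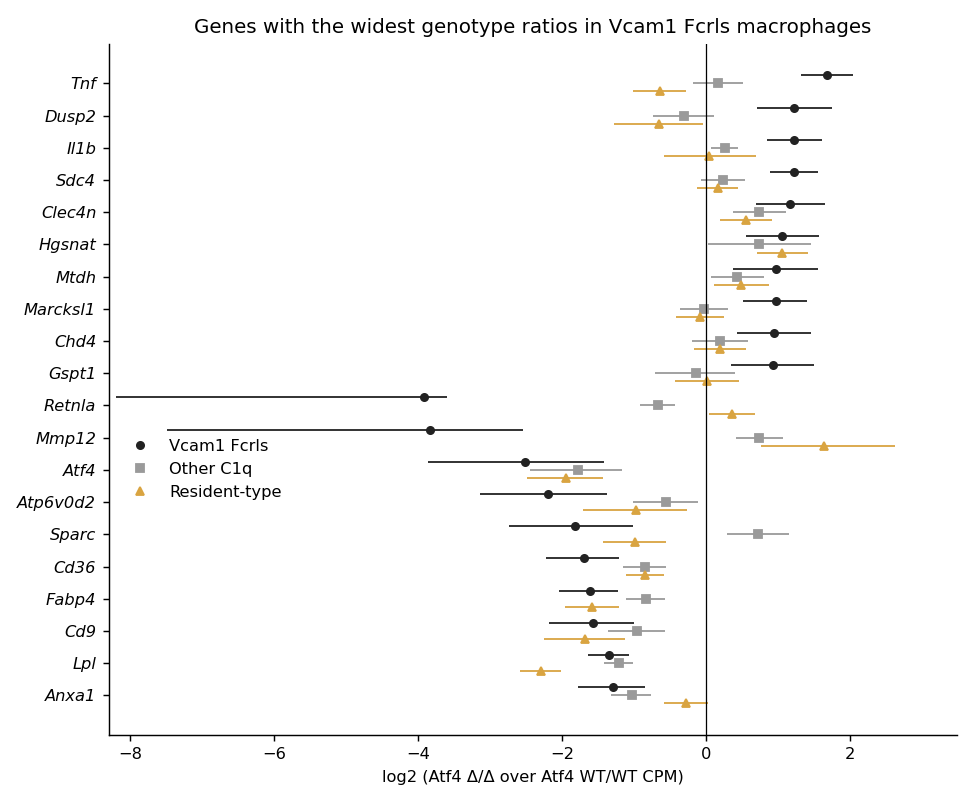
Log2 ratio of CPM, Atf4 Δ/Δ over Atf4 WT/WT, for the 10 genes in each direction with the widest ratios in Vcam1 Fcrls macrophages (black), with the same genes in other C1q (grey) and resident-type macrophages (ochre). Points are ratios of 1 library per genotype and lines are 95% counting intervals; Tnf stands at 1.68, 0.17 and -0.64 in the 3 classes, and Lpl is below 0 in all 3.

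The Δ/Δ cells could be split by sex-linked transcripts, with WT/WT as the common base. Those outside the Y-positive set were 67 cells with neither kind of transcript, 4 with Xist alone and 2 with both, so they are not a sex group. For the 20 Y-positive cells the Tnf ratio was 1.42 and for the other Δ/Δ cells 1.76. Lpl gave -0.69 and -1.65, Cd36 -1.13 and -1.94, Fabp4 -1.10 and -1.84, Apoe 0.63 and 0.77, and Cd74 -0.64 and -1.50. The 20 named genes were chosen for their ratios over both sets together, so a shared sign was largely fixed in advance and supports nothing. All 20 had the same sign in both sets of Δ/Δ cells, and for 16 the Y-positive cells lay nearer to WT/WT. These 16 include Retnla, Mmp12 and Atf4, whose Y-positive counts were under the floor of 3 UMIs. Dusp2 was among the exceptions, with ratios of 1.80 and 0.98.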

How the data were processed

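Each library was a droplet library of 3′ RNA ends. The authors aligned the reads to GRCm38 and counted UMIs per gene and barcode with Cell Ranger 3.1.0 (version from the submitters' processing notes), and deposited raw UMI counts for 31053 genes. Filtered barcodes were used as deposited. From these counts cells were filtered and classed as described, class totals of UMIs were formed in each library and scaled to 1000000, and ratios were given with exact conditional binomial intervals (scipy 1.17.1, numpy 2.4.6, Python 3.11.15). Shares have Clopper-Pearson intervals, and ratios of shares have approximate ones from their binomial errors. Counts under 3 were set to 3. Genes needed at least 50 UMIs to be measured. Named genes were gate genes, members of the lists described, and the 10 per direction with the widest ratios among genes with at least 100 UMIs, without mitochondrial, haemoglobin and sex-linked genes, unnamed gene models, and genes over 4 times higher in pigment-rich cells. Called means past 2-fold. Scrublet in scanpy 1.11.5 marked 3 of 163 and 0 of 93 Vcam1 Fcrls macrophages as doublets, which were kept, and 2.95% and 1.41% of kept cells. The interval code was tested on simulated data. Members and lists were chosen with earlier results of these data known. Some named genes are not reported here.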

Additional observations from a re-analysis of the deposited data

Results flagged for a closer look

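Several genes had a genotype ratio in Vcam1 Fcrls macrophages opposite in direction to that in another class, each on 1 library per genotype. In every case the difference between the classes was not tested. Against other C1q macrophages these were Mmp12 (log2 ratio of Δ/Δ over WT/WT -3.84, against 0.74), Sparc (-1.82 against 0.73), H2-Aa (-1.23 against 0.18), Cd74 (-1.23 against 0.17), Thbs1 (-0.996 against 0.56), H2-Ab1 (-0.94 against 0.31) and Gpnmb (-0.38 against 0.23). Against resident-type macrophages they were Retnla (-3.92 against 0.36), Mmp12 (-3.84 against 1.65), Fn1 (-1.11 against 0.83), Tnf (1.68 against -0.64), Dusp2 (1.23 against -0.65) and Gas6 (0.49 against -0.24). Sparc and Retnla each rest on few WT/WT cells, and with at least 2 markers in the gate Retnla turned to 1.02. For Gpnmb, 99 of 361 WT/WT UMIs lay in 3 cells. Without the 3 richest cells of each library its ratio was -0.26 (-0.61 to 0.09), an interval that includes 0.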

How the results depend on the processing

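No paired analysis was possible because the genotypes were represented by 1 library each. The direction of the share and Atf4 ratios was kept under each of 15 alternatives that gave them a value. In Xist-positive cells, where Δ/Δ had only 4 Vcam1 Fcrls macrophages, the share ratios were -2.03 of C1q macrophages and -2.33 of kept cells. The genotype counts on these few cells were 135 higher and 35 lower. The counts were 0 and 4 against other C1q and 3 and 2 against resident-type macrophages. The number of genes measured can change with the setting and was not taken, so counts here and below cannot be read as shares. With the gate read at 2000 UMIs, Atf4 gave -1.34, the counts against other C1q macrophages were 4 and 10, and Syngr1 turned to -0.11 there in Δ/Δ. With no minimum count the counts were 629 and 311, 124 and 73, and 91 and 107, and with at least 200 UMIs 3 and 12, 0 and 9, and 4 and 7. TMM scaling (edgeR 4.0.16) gave 24 genes higher in Δ/Δ. With at least 2 markers, 28 genes were higher than in resident-type macrophages, Retnla turned to 1.02 between genotypes and 0.86 against other C1q macrophages in Δ/Δ, and 2 medians against resident-type macrophages in Δ/Δ turned, alternative activation to 0.13 and monocyte genes to 0.69. Sparc turned to 0.43 without doublets. Chosen after seeing the data were a limit of 1 resident-type gene, which gave 17 higher between genotypes, 2 against other C1q and 6 against resident-type macrophages, and leaving out the 3 richest cells, where Sparc turned to 0.16 and, outside the 20 named genes, Arg1 to -0.76, while Chil3 (0.76) and Il10 (0.81) fell below 2-fold. The causes were not tested.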
